A study of Mus musculus with 6 samples.

Results

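The 9 genes described here encode the enzymes that make serine from a glycolytic intermediate and those that pass its side carbon into the folate pool. They were taken by symbol from a table of 14883 genes, and all 9 (Phgdh, Psat1, Psph, Shmt2, Mthfd2, Mthfd1l, Aldh1l2, Shmt1 and Mthfd1) were present and passed the filter on low counts. The set was chosen with earlier results of these data known, so contrasts between members and all tested genes only describe it. RNA had been sequenced from B16F10luc2 cells, a mouse melanoma line of the B16F10 type. In 3 samples the flexible culture plates were cyclically stretched for 24 h (15% elongation in all directions of the plane, 15 cycles per minute), and in 3 static samples cells stayed in the same kind of plate without stretch. Both groups grew in DMEM with 10% serum at 21% oxygen, and no other treatment or genetic change separates them in the labels. All samples are of 1 cell line. The labels do not say whether replicates came from separate dishes or passages, and the p-values then rest on a replicate spread that could be technical alone.

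Serine is built from phosphoglycerate in a short chain of reactions catalysed by PHGDH, PSAT1 and PSPH. Serine hydroxymethyltransferases then split it into glycine and a carbon unit carried by tetrahydrofolate, in mitochondria by SHMT2 and in the cytosol by SHMT1. In mitochondria MTHFD2 oxidises the folate-bound carbon, MTHFD1L releases it as formate, and ALDH1L2 can instead burn it to carbon dioxide with production of NADPH. Formate leaves for the cytosol, where MTHFD1 loads it back onto folate for purine, thymidylate and methionine synthesis. Many tumour cell lines depend on this loop, and in mammalian cells several of its mitochondrial and serine synthesis genes are known targets of the transcription factor ATF4.

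Under stretch the serine synthesis genes and the mitochondrial folate genes were lower, and the cytosolic pair was higher. All 3 serine synthesis genes fell, by 1.41-fold to 1.72-fold, and all 4 mitochondrial folate genes fell, by 1.17-fold to 2.35-fold. Both cytosolic genes rose, Shmt1 by 1.35-fold and Mthfd1 by 1.17-fold. In bulk RNA, fewer cells that express a gene and less of its RNA per cell cannot be told apart. Levels are given as CPM, the count divided by the TMM-scaled library size in units of 1e6 counts. All calls are from edgeR's quasi-likelihood test with a Benjamini-Hochberg adjusted p under 0.05 over 12377 tested genes. Such calls were common in these libraries: 50.9% of all tested genes were called, 25.9% lower and 24.9% higher. Against the stricter null of a 1.2-fold change (edgeR's glmTreat), which 12.9% of tested genes passed (7.38% as lower and 5.49% as higher), 6 members were lower and 1, Shmt1, was higher. Mthfd1l and Mthfd1 did not pass it (adjusted p = 1 for both). The median of the absolute log2 fold changes was 0.50 over the members and 0.18 over all tested genes.

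**Figure D1:**
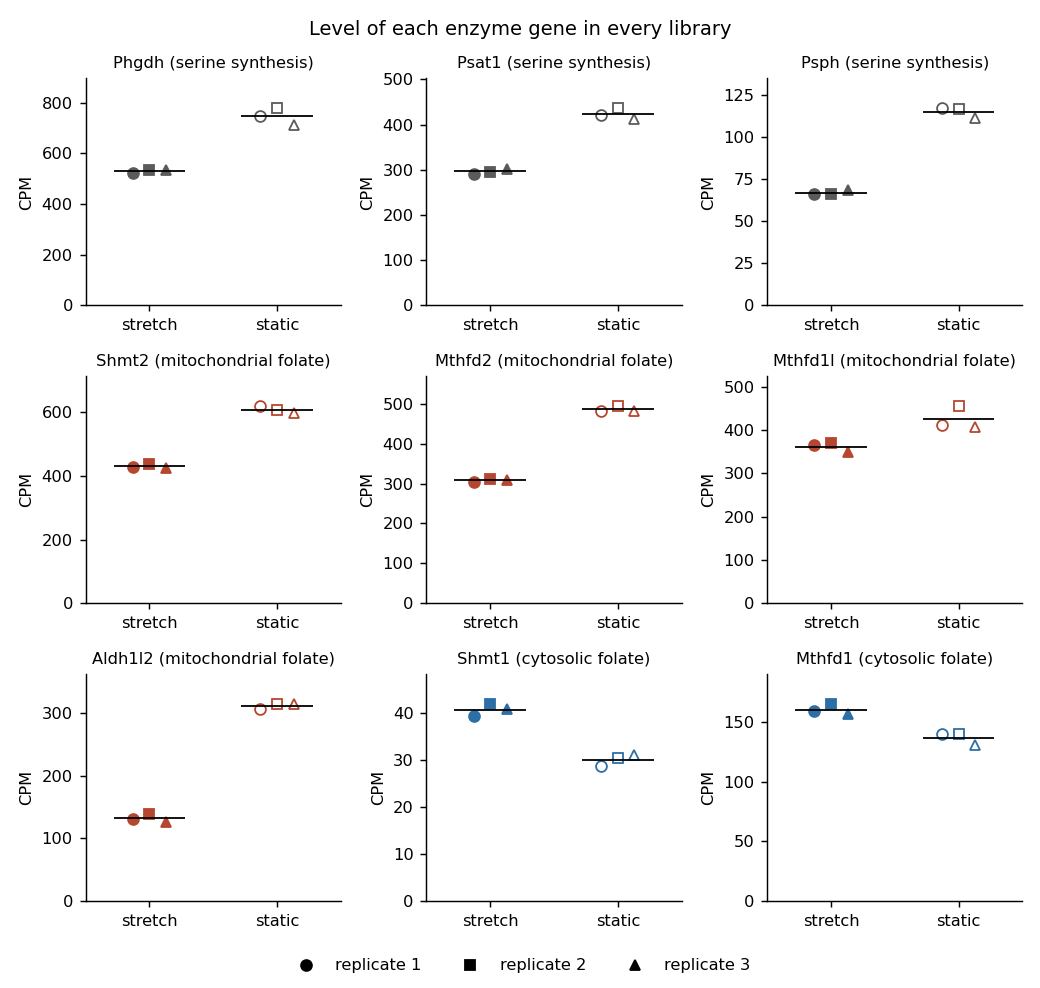
Level of each of the 9 genes in CPM (vertical axes from 0) in the 3 stretched libraries (filled) and the 3 static libraries (open), with the marker shape giving the replicate and the line the group mean. In 7 panels all stretched points lie below all static points, and in the panels of Shmt1 and Mthfd1 they lie above. Such separation was common, at 58.5% of all tested genes (29.4% lower and 29.0% higher).

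Total counts ran from 19469286 to 36351400 per library, and the members' own estimated counts from 573 to 21269. Counting error was thus small for most members and larger for Shmt1, which held the lowest count, 573 in static replicate 2. The members varied little within a group: their coefficient of variation over 3 libraries had a median of 2.46% in stretched and 2.83% in static cells, against 3.80% and 5.05% over all tested genes. The 2 sets were not matched for level, and genes with few counts vary more. Melanocyte markers were abundant, with a summed level of 19863 to 20454 CPM in stretched and 22410 to 24790 CPM in static libraries over the 7 genes Mitf, Sox10, Tyr, Tyrp1, Dct, Pmel and Mlana, of which 3 (Tyrp1, Pmel and Dct) were lower, 1 (Mitf) higher and 3 not called. The part of this shift in the members' levels was not tested. All 4 fibroblast markers were in the table, with sums of 15.7 to 17.2 CPM in stretched and 12.98 to 17.9 CPM in static libraries, and Dcn at no more than 0.2 CPM. Of 4 immune markers only Cd68 was in the table, at 1.01 to 1.13 CPM in stretched and 1.16 to 1.33 CPM in static libraries. Of 5 endothelial and epithelial markers only Pecam1 was, at 0.336 to 0.589 CPM in stretched and 0.266 to 0.387 CPM in static libraries. The balance of directions over all genes depended on scaling: with TMM factors 49.0% of the 6298 calls were higher, and with library size alone 63.2% of 6518.

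For 4 members, Phgdh, Psat1, Shmt2 and Shmt1, the 250 bases before a RefSeq start (GRCm38.p6) lay wholly outside the annotated gene, and these windows are shown because they hold 2 serine synthesis genes beside the mitochondrial and the cytosolic form of the enzyme that splits serine. They are given on the strand of the gene: chr3:98339970-98340219 (minus strand) for Phgdh, chr19:15925060-15925309 (minus) for Psat1, chr10:127522445-127522694 (minus) for Shmt2 and chr11:60811266-60811515 (minus) for Shmt1. Capitals mark CCAAT, the core letters of the box bound by the factor NF-Y, or its reverse complement ATTGG.
Phgdh: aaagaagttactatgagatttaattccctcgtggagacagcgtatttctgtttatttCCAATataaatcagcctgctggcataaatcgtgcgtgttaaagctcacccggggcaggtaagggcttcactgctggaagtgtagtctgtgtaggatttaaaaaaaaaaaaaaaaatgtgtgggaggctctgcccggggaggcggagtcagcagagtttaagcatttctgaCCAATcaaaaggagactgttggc
Psat1: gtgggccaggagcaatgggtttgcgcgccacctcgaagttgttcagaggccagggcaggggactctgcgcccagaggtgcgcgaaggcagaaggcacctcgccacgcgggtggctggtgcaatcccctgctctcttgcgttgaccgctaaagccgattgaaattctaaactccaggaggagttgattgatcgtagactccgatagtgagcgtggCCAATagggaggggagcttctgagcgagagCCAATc
Shmt2: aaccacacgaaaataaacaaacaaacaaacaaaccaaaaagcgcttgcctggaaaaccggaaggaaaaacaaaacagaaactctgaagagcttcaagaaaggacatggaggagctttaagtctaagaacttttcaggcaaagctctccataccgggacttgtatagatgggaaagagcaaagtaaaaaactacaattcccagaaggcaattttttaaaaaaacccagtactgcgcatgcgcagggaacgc
Shmt1: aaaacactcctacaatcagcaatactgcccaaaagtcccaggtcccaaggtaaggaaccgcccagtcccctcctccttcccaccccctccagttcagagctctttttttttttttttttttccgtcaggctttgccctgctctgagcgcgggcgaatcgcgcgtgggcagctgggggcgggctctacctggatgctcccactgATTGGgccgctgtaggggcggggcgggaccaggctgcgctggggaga

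The promoter table held windows for 8 members, with 9 starts, and the window of Aldh1l2 was not analysed here. For the other 4 members the listed start was not the outermost one: the windows of Mthfd2 and Mthfd1 lay wholly inside the annotated gene, and those of Psph and Mthfd1l lay inside it by 190 and 183 of 250 bases. Their motif counts refer to the listed start. CCAAT, on either strand, occurred in 6 of the 8 members, against 37.5% of 27025 genes with windows of the same length. Mthfd2 had 3 copies, 96, 47 and 22 bases before the start. Phgdh, Psat1 and Psph had 2 copies each, Shmt1 and Mthfd1 1 each, and Shmt2 and Mthfd1l none, so these letters did not separate the genes that fell from those that rose. TGATGNAA, the core of the element that ATF4 and C/EBP proteins bind, was found on neither strand of any of these windows, and in 3.91% of all genes. The E-box CACGTG, bound by MYC, was likewise in none of the 8 and in 6.86% of all genes. TGACGT, part of the cyclic AMP response element, was in 1 of the 8 (Mthfd1l, 13 bases before the start) and in 7.29% of all genes. No match in these windows overlapped another, and a match or its lack describes only the window.

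Phgdh (Entrez Gene 236539; chromosome 3, 98313171 to 98339969 in GRCm38) encodes phosphoglycerate dehydrogenase, which diverts carbon from glycolysis at the entry of the pathway. It had 524, 536 and 535 CPM in stretched libraries, against 749, 779 and 714 CPM in static libraries. The lowest static library thus stood well above the highest stretched one, while static libraries were spread more widely than stretched ones. The log2 fold change was -0.49 (SE 0.037, 95% interval -0.57 to -0.41, adjusted p = 7.761e-08 in edgeR's quasi-likelihood test).

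Psat1 (Entrez Gene 107272; chromosome 19, 15905123 to 15925059) encodes phosphoserine aminotransferase, which adds the amino group taken from glutamate. It had 291, 296 and 302 CPM in stretched libraries, against 421, 437 and 413 CPM in static libraries. The groups did not overlap, and the change was close to that of Phgdh (log2 fold change -0.51, SE 0.035, adjusted p = 2.753e-08 in edgeR). Psph (Entrez Gene 100678; chromosome 5, 129765558 to 129787443), the gene of the phosphatase that completes serine, was the least abundant and the most changed of the 3. It had 66.0, 66.0 and 68.8 CPM in stretched libraries, against 117, 117 and 111 CPM in static libraries. Its log2 fold change was -0.78 (SE 0.039, 95% interval -0.87 to -0.70), an interval that lay wholly below those of Phgdh and Psat1 (-0.57 to -0.41 and -0.59 to -0.44). Psph overlaps its neighbour Cct6a by 88 bases at the annotated 5′ end, and Cct6a, a chaperonin subunit gene, had a log2 fold change of 0.24 in the other direction. The summed level of the 3 serine synthesis genes was 895 ± 12.7 CPM in stretched and 1286 ± 47.1 CPM in static cells (mean ± SD, n = 3 each), a fall of 30.4%.

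Among the mitochondrial folate genes, Aldh1l2 changed most. It encodes the formyltetrahydrofolate dehydrogenase of mitochondria (Entrez Gene 216188; chromosome 10, 83487447 to 83534146) and had 131, 139 and 127 CPM in stretched libraries, against 306, 314 and 314 CPM in static libraries. The stretched libraries lay far below the static ones, at a distance many times the spread within either group. Its log2 fold change of -1.23 (SE 0.039, 95% interval -1.32 to -1.15) was number 58 from the lowest among the 12377 tested genes.

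Mthfd2 (Entrez Gene 17768; chromosome 6, 83305704 to 83326011), the gene of the mitochondrial methylenetetrahydrofolate dehydrogenase and cyclohydrolase, had 304, 311 and 309 CPM in stretched libraries, against 482, 494 and 482 CPM in static libraries. Its libraries were among the tightest of the members in both groups, and the log2 fold change was -0.66 (SE 0.033, adjusted p = 1.215e-09 in edgeR). Shmt2 (Entrez Gene 108037; chromosome 10, 127517123 to 127522444), the mitochondrial serine hydroxymethyltransferase gene, had 427, 437 and 425 CPM in stretched libraries, against 619, 607 and 597 CPM in static libraries. Its log2 fold change of -0.50 (SE 0.033) was nearly that of the serine synthesis genes Phgdh and Psat1. A 32-base overlap with Ndufa4l2 joins Shmt2 to a gene at 0.090 CPM in stretched and 0.178 CPM in static cells. Other members also overlap annotated genes, none of which was in the table. Aldh1l2 shares 26390 bases of its span with the noncoding Gm51778, and Mthfd1 shares 9980 with Gm40443. Mthfd1l shares 13637 bases with the noncoding Gm40591 and 2891 with the pseudogene Gm16074.

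Mthfd1l (Entrez Gene 270685; chromosome 10, 3972892 to 4167081) encodes the mitochondrial ligase that frees formate, and it changed least of the 4. It had 365, 370 and 349 CPM in stretched libraries, against 411, 455 and 406 CPM in static libraries. The groups stood apart, but static replicate 2 lay above the other static libraries, and without it the log2 fold change was -0.18 in place of -0.23 (SE 0.044, adjusted p = 5.435e-04 with all libraries in edgeR). The 95% interval, -0.32 to -0.13, did not meet that of Shmt2 (-0.57 to -0.43). Summed over the 4 genes, the mitochondrial folate level was 1232 ± 23.9 CPM in stretched and 1829 ± 37.0 CPM in static cells (SD, n = 3 each), a fall of 32.6%. Shmt2, Mthfd1l and Aldh1l2 all lie on chromosome 10, which holds 5.23% of the tested genes, far from each other along it.

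The cytosolic enzymes went the other way. Shmt1 (Entrez Gene 20425; chromosome 11, 60788897 to 60811265), the cytosolic serine hydroxymethyltransferase gene, had 39.2, 41.9 and 40.8 CPM in stretched libraries, against 28.7, 30.5 and 31.1 CPM in static libraries. All stretched libraries were higher, with a log2 fold change of 0.43 (SE 0.050, 95% interval 0.32 to 0.54, adjusted p = 5.923e-06 in edgeR). Mthfd1 (Entrez Gene 108156; chromosome 12, 76254406 to 76319820) encodes the cytosolic enzyme that joins formate to folate and also interconverts the folate-bound forms. It had 159, 165 and 156 CPM in stretched libraries, against 140, 139 and 131 CPM in static libraries. These groups did not overlap either, and the log2 fold change was 0.23 (SE 0.039, 95% interval 0.15 to 0.31, adjusted p = 1.892e-04 in edgeR). All 9 members were free of overlap between groups, as were 58.5% of all tested genes (29.4% lower and 29.0% higher).

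**Figure D2:**
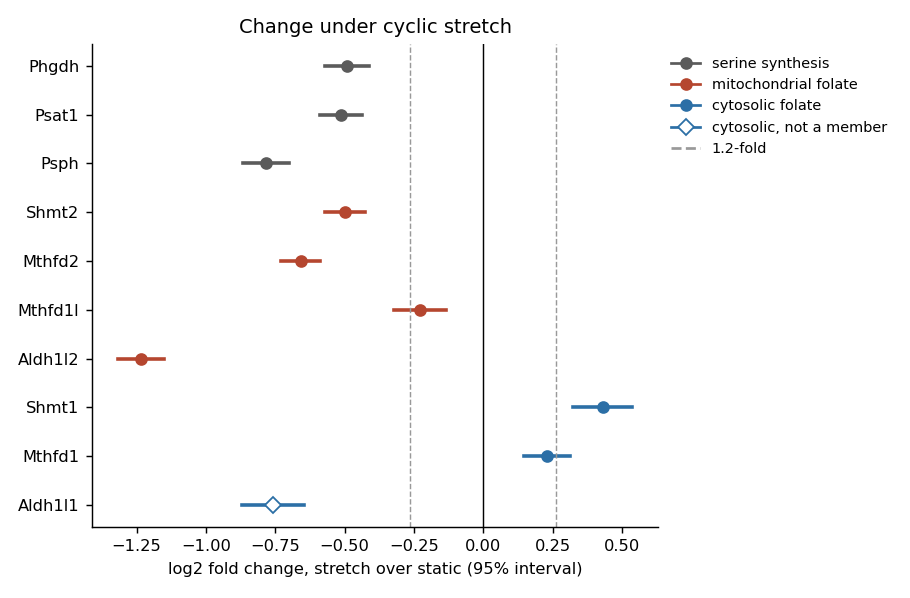
Log2 fold change of stretched over static cells (horizontal axis) with its 95% interval for the 9 members and for Aldh1l1, a cytosolic enzyme gene that is not one of them. Serine synthesis and mitochondrial folate genes lie left of 0, Shmt1 and Mthfd1 right of it, and Aldh1l1 lies left at -0.76; the dashed lines mark a 1.2-fold change.

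The median log2 fold change was -0.58 for the 4 mitochondrial genes and 0.33 for the 2 cytosolic ones, against 0.00 over all tested genes. To set them against each other within each library, where scaling between libraries drops out, the CPM ratio of the mitochondrial to the cytosolic enzyme was taken for 4 pairs that share a reaction or an enzyme domain. For Shmt2 over Shmt1 the log2 ratio was 3.44, 3.38 and 3.38 in stretched libraries, against 4.43, 4.32 and 4.26 in static libraries, so the lead of the mitochondrial form was 1.91-fold smaller under stretch. For Mthfd2 over Mthfd1 it was 0.93, 0.92 and 0.98 in stretched libraries, against 1.79, 1.83 and 1.88 in static libraries, a 1.85-fold smaller ratio. The pair of ligases moved less: Mthfd1l over Mthfd1 had log2 ratios of 1.201, 1.168 and 1.159 in stretched libraries, against 1.56, 1.71 and 1.63 in static libraries.

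The dehydrogenase pair differs from the others, since its cytosolic member fell too. Aldh1l1, the cytosolic counterpart of Aldh1l2, had 30.5, 29.7 and 29.2 CPM in stretched libraries, against 49.8, 54.3 and 48.0 CPM in static libraries. Its log2 fold change was -0.76 (SE 0.052, adjusted p = 2.903e-08 in edgeR), so lower levels were not limited to mitochondrial folate enzymes. The log2 ratio of Aldh1l2 over Aldh1l1 was still lower, at 2.10, 2.23 and 2.12 in stretched libraries, against 2.62, 2.53 and 2.71 in static libraries. In each of the 4 pairs all stretched libraries had a lower ratio than all static libraries. For the pairs with Shmt1 or Mthfd1 this separation follows from the member levels above, which did not overlap and moved in opposite directions. It is therefore no further evidence, and Mthfd2 and Mthfd1l share Mthfd1 as their counterpart. The exact two-sided permutation test over samples gave p = 0.1 for each pair (0.1 after Benjamini-Hochberg adjustment over the 4), which is the smallest p that 3 against 3 samples allow.

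**Figure D3:**
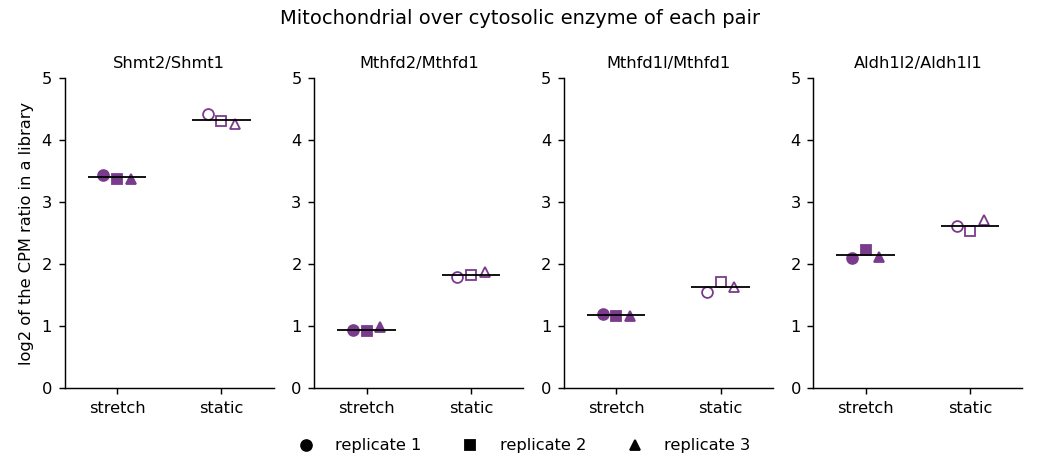
Log2 of the CPM ratio of a mitochondrial enzyme to its cytosolic counterpart (vertical axis) in each stretched (filled) and static (open) library, with lines at the group means. In the 4 panels the stretched libraries lie below the static ones, by 0.46 to 0.93 on average.

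Levels of different genes can be compared only per length, so CPM was divided by the length of the longest coding transcript of each gene in kilobases. On this scale Phgdh had the highest level in both groups, 281 ± 3.69 CPM per kb in stretched and 395 ± 17.3 CPM per kb in static cells (SD, n = 3 each), followed by Shmt2, Mthfd2, Psat1 and Mthfd1l in that order. Shmt1 had the lowest, 14.2 ± 0.463 CPM per kb in stretched and 10.5 ± 0.437 CPM per kb in static cells. Between these, the order differed by group. In stretched cells Mthfd1 (49.4 ± 1.32 CPM per kb) stood above Psph (38.6 ± 0.951) and Aldh1l2 (21.9 ± 1.01). In static cells Psph (66.4 ± 1.88 CPM per kb) and Aldh1l2 (51.6 ± 0.712) stood above Mthfd1 (42.1 ± 1.56). No neighbours in either order had overlapping ranges over the libraries.

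The order depends on the length used, because untranslated parts differ between these transcripts. Per kilobase of coding sequence Mthfd2 and Shmt2 changed places, at 293 ± 3.88 and 284 ± 4.27 CPM per kb in stretched cells, where their ranges touched. In static cells Mthfd2 (463 ± 6.44 CPM per coding kb) then lay within the range of Phgdh (446 to 487). Psph stood above Mthfd1 in both groups on the coding scale, at 99.1 ± 2.44 against 57.1 ± 1.52 CPM per kb in stretched cells. Shmt2 exceeded Shmt1 on either scale, with ratios per kb of transcript of 13.59, 13.04 and 13.02 in stretched libraries, against 26.9, 24.9 and 24.0 in static libraries.

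**Figure D4:**
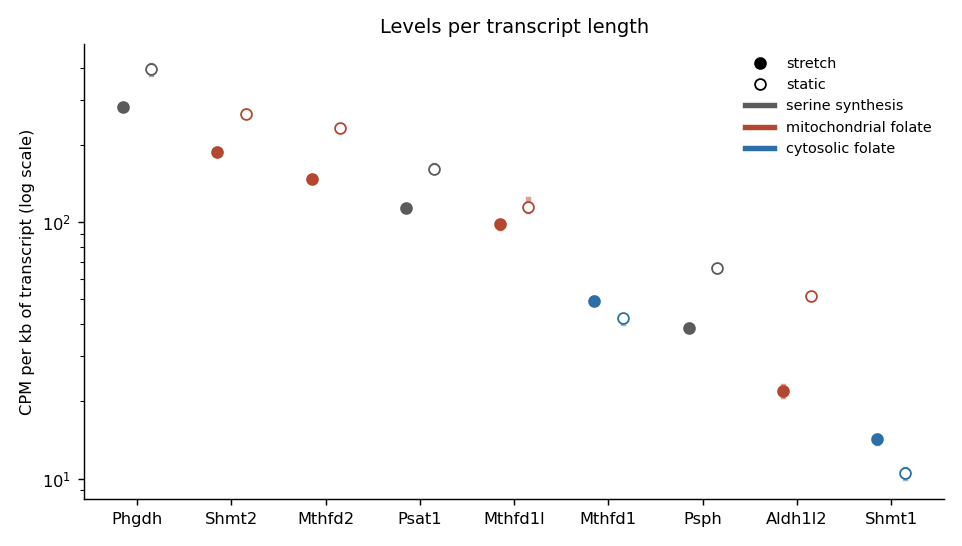
Level per kilobase of transcript (CPM per kb, log axis) of the 9 genes, ordered by their mean in stretched cells, with points at the mean of 3 stretched (filled) or static (open) libraries and bars from the lowest to the highest library. Phgdh is highest and Shmt1 lowest in both groups, and Mthfd1 and Shmt1 are the genes with the filled point above the open one.

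The rest of the folate machinery showed no common direction. Of 18 listed other folate enzymes and folate carriers 15 were tested, of which 4 were lower, 3 higher and 8 not called, with a median log2 fold change of 0.02. These counts are near the shares over all tested genes, 25.9% lower and 24.9% higher. Among the lower ones were Aldh1l1, Slc46a1 and Mthfd2l. Slc46a1, a proton-coupled folate carrier gene, had 6.72 ± 0.534 CPM in stretched and 8.95 ± 0.285 CPM in static cells (SD, n = 3 each). Mthfd2l, a mitochondrial isozyme of Mthfd2, was nearly absent, at 0.417 ± 0.049 CPM in stretched and 0.710 ± 0.116 CPM in static cells. Its log2 fold change of -0.74 (SE 0.298) was at the threshold (adjusted p = 4.952e-02 in edgeR), and with DESeq2 the adjusted p was 0.1949.

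Among the higher ones were Tyms and Fpgs, Fpgs being named after its values were seen. Tyms, the thymidylate synthase gene, had 89.6, 86.5 and 88.9 CPM in stretched libraries, against 71.1, 70.0 and 69.9 CPM in static libraries (log2 fold change 0.33, SE 0.036). Fpgs, which adds glutamates that keep folate in the cell, had 27.6 ± 1.55 CPM in stretched and 23.7 ± 2.42 CPM in static cells. With library size scaling alone 6 genes of this list were called higher. Of genes that were not called, Gart and Atic (also named after their values were seen), which use formyl folate in purine synthesis, had 169 ± 3.16 and 237 ± 3.55 CPM in stretched cells, against 167 ± 6.99 and 242 ± 8.31 CPM in static cells.

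Genes of glycine and methionine steps showed small or mixed differences. Gldc, the decarboxylase of the glycine cleavage system, was not among the 14883 genes of the table. Of the 3 tested genes of that system 2 were higher, and Amt was not called. Amt, named after its values were seen, was low, at 1.13 ± 0.267 CPM in stretched and 0.827 ± 0.310 CPM in static cells. Gcsh, the lipoyl carrier protein gene of the system, had 26.6 ± 1.22 CPM in stretched and 21.2 ± 1.39 CPM in static cells. Dld, a subunit shared with other dehydrogenase complexes, had 146 ± 3.598 CPM in stretched and 131 ± 4.96 CPM in static cells, and was not called with an offset for GC content and length (adjusted p = 0.6127). Of 8 tested genes of the methionine cycle and transsulfuration 3 fell, 1 rose and 4 were not called (median log2 fold change -0.06). For comparison, 25.9% of all tested genes were called lower and 24.9% higher. Cth, the gene of cystathionine gamma-lyase, which makes cysteine from serine-derived cystathionine, had 20.1, 21.1 and 20.9 CPM in stretched libraries, against 34.3, 33.4 and 36.8 CPM in static libraries. Its log2 fold change of -0.76 (SE 0.055) was about as large as that of Psph. Mtrr, which reactivates methionine synthase, had 35.7 ± 1.64 CPM in stretched and 43.8 ± 1.07 CPM in static cells. Ahcyl2 and Ahcyl1, relatives of the hydrolase of the cycle, had log2 fold changes of -0.18 and 0.15, and both failed the test against 1.2-fold.

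Of 11 tested serine and glycine carriers 7 were lower, 3 higher and 1 not called (median of their log2 fold changes -0.17). The shares over all tested genes were 25.9% lower and 24.9% higher. The number lower was 5 with upper-quartile factors, with library size only, and without any 1 of the stretched libraries or static replicate 1, and against 1.2-fold 3 carriers were lower and 1 higher. Slc6a9, a glycine carrier gene, had 16.8, 16.3 and 17.9 CPM in stretched libraries, against 55.2, 51.5 and 55.5 CPM in static libraries. Slc1a4 and Slc1a5, carriers of neutral amino acids such as serine and glutamine, had log2 fold changes of -0.81 (SE 0.037) and -0.59 (SE 0.047). Among the 3 higher carriers was Sfxn2, of the sideroflexin family of the inner mitochondrial membrane, with 36.1 ± 0.997 CPM in stretched and 26.5 ± 0.447 CPM in static cells. Sfxn1, the mitochondrial serine carrier gene itself, had 115 ± 1.94 CPM in stretched and 105 ± 1.95 CPM in static cells (log2 fold change 0.13, SE 0.036), and Slc36a4 was the other (0.32). Sfxn1 and Slc36a4 were named after their values were seen.

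All 6 tested genes of other serine-using enzymes were called lower (median of their log2 fold changes -0.24), and 1 of them, Sdsl, passed against 1.2-fold. Among all tested genes 25.9% were called lower, and 7.38% passed as lower against 1.2-fold. Sdsl, related to serine dehydratase, was at 2.00 ± 0.111 CPM in stretched and 3.40 ± 0.128 CPM in static cells. Srr, the serine racemase gene, had 15.1 ± 0.666 CPM in stretched and 20.0 ± 1.19 CPM in static cells. Ptdss2, a phosphatidylserine synthase gene, had 35.3 ± 0.845 CPM in stretched and 42.3 ± 2.79 CPM in static cells. Of 6 tested genes of lower glycolysis, from which serine synthesis branches at phosphoglycerate, 5 were lower (median of their log2 fold changes -0.27), and none of the 5 passed against 1.2-fold. Gapdh and Pgk1, whose enzymes act before the branch, had log2 fold changes of -0.31 (SE 0.050) and -0.28 (SE 0.064), Pgk1 being named after its values were seen. Eno1 and Pkm, whose enzymes act after it, had -0.26 (SE 0.053) and -0.33 (SE 0.046). Pseudogenes of Gapdh and Eno1 may share their estimated counts.

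**Figure D5:**
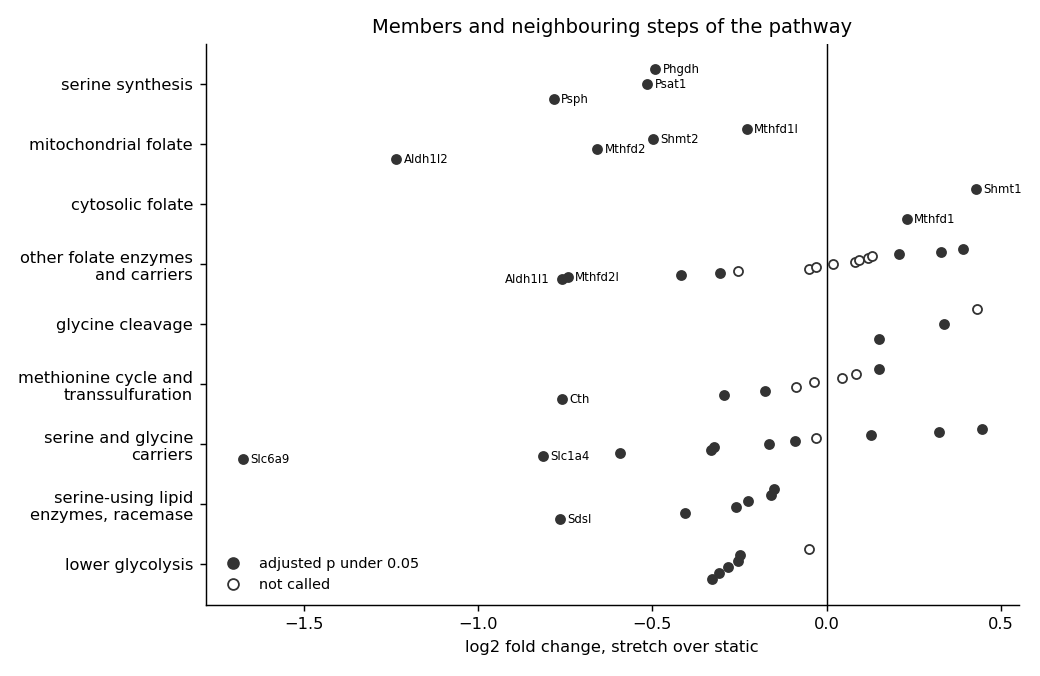
Log2 fold change of stretched over static cells (horizontal axis) of every tested gene of the 3 groups of members and of 6 neighbouring lists, 1 point per gene, filled where the adjusted p was under 0.05. Serine synthesis and mitochondrial folate genes lie left of 0 and cytosolic folate members right of it, while other folate enzymes spread over both sides around a median of 0.02.

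Of 4 tested regulators known for these genes Atf4 was lower, Myc and Mtor were higher and Nfe2l2 was not called, Mtor and Nfe2l2 being named after their values were seen. The Mtor difference was small (log2 fold change 0.11, SE 0.040). Against 1.2-fold 1 of the 4 was lower and 1 higher. Among all tested genes 25.9% were called lower and 24.9% higher. Atf4 had 358, 360 and 351 CPM in stretched libraries, against 622, 583 and 594 CPM in static libraries (log2 fold change -0.75, SE 0.036). Myc had 83.9, 77.3 and 81.6 CPM in stretched libraries, against 53.6, 49.1 and 57.2 CPM in static libraries (log2 fold change 0.60, SE 0.052). The part of either factor in the members' levels was not tested. Likeness of pattern was measured as the root mean square difference of log2(CPM + 0.5), centred per gene, over the 6 libraries. The tested genes outside the set nearest to Phgdh were Gabarap (0.008), Hspa9 (0.014), Sh3kbp1 (0.017) and Pdia3 (0.017). Among those nearest to Mthfd2 were Zbtb7b (0.020), Atp6v0a1 (0.020) and Acly (0.022). The 6 libraries form 2 groups, so this measure is set largely by the size of the difference between them.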

How the data were processed

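Expression was compared between 3 cyclically stretched and 3 static samples of B16F10luc2 cells, grouped by the labels. Per the labels' protocols, RNA came from Trizol lysates and RNeasy columns, and libraries followed a standard BGI procedure; RNA selection and strandedness were not given in the sources used here. Values were deposited by the authors as estimated counts per Entrez Gene number, in unscaled whole numbers. The submitters' processing notes name Salmon 1.4.0 as a tool and mm10 and GRCm38 as builds, with no role for any. Salmon-type estimates apportion ambiguous reads statistically, so paralogs and overlapping genes carry added uncertainty. No listed gene had a total below 10 counts.

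Symbols and positions came from the RefSeq table of GRCm38.p6 (14875 of 14883 numbers matched), promoters from RefSeq, and lengths and GC content from GENCODE M21 (longest coding transcript, known for 99.2% of tested genes). With edgeR 4.0.16 (R 4.3.3), filterByExpr (minimum count 10) kept 12377 genes, TMM factors ran from 0.966 to 1.02, and the rounded counts entered a quasi-likelihood fit whose only term was the group (4 residual degrees of freedom). Tests were two-sided, p-values were adjusted by Benjamini-Hochberg over all tested genes, and CPM values use TMM-scaled library sizes. Standard errors were derived from the F statistic. The fit was also run on simulated counts with few changed genes and the same dispersion for every gene. That setting is simpler than these libraries, so it does not measure error rates here. Replicates of a group differed by more than sampling noise (chi-square per degree of freedom 1.88 to 7.64), and each was kept as a separate sample. That difference cannot tell separate cultures from libraries made from the same dish.

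The members and lists were chosen with earlier results of these data known. Named genes were the members; per pathway list, up to 3 called genes with the smallest p in the commoner direction plus 1 in the opposite direction; Aldh1l1, Mthfd2l, Atf4 and Myc; and the 4 genes most alike to Phgdh and to Mthfd2. Some genes that this rule covers are not reported here. Alternatives were other scalings and filters, DESeq2 1.42.0, limma-voom (limma 3.58.1), glmTreat, the replicate number as a block, a GC and length offset (splines with 5 degrees of freedom), thinned counts and each library left out.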

Additional observations from a re-analysis of the deposited data

How the results depend on the processing

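All 9 members kept their direction under each of the 17 alternatives, and all stayed called except Mthfd1 and Mthfd1l against a 1.2-fold change. Their log2 fold changes ran from -1.28 to -1.17 for Aldh1l2, from -0.53 to -0.41 for Phgdh, from -0.51 to -0.41 for Shmt2, from -0.26 to -0.17 for Mthfd1l, from 0.20 to 0.30 for Mthfd1 and from 0.40 to 0.49 for Shmt1. With glmTreat against 1.2-fold 1592 genes were called in place of 6298, 1 member in place of 2 was higher, and 8 genes of the related lists were called in place of 34; the null itself is stricter. The median of the mitochondrial members, -0.58, became -0.52 with library size only and -0.53 with the GC and length offset, and that of the cytosolic members, 0.33, became 0.39 with library size only; the cause was not tested. Library size only moved the median of all genes to 0.06. Same-numbered samples did not deviate together over all tested genes (correlations -0.0118, 0.00505 and -0.077 for numbers 1, 2 and 3). These values gave no sign of pairing by number, but 3 samples per group cannot exclude a shared dish or day. With the replicate block 5967 genes were called, all 9 members among them. The log2 ratio differences of the enzyme pairs are the same with this block by construction, since each is then a mean of same-numbered differences. Exact sign flips gave p = 0.25, the smallest that 3 same-numbered pairs of samples allow. Among named genes Mthfd2l lost its call under 12 alternatives. The shallowest library held 19469286 counts, which limits Mthfd2l, below 1 CPM, more than any member.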
